A study of Mus musculus with 6 samples.

Results

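The piRNA pathway and germ granule genes were taken by symbol from the gene tables of a mouse testis study, and all 33 listed symbols were present among 34144 gene rows. The study measured RNA from the testes of 6 mice of strain C57Bl/6J aged 3 months, 3 of genotype WT and 3 of genotype Nsun7-/-. The labels number the mice, 1 per library, and RNA came from the seminiferous tubules of decapsulated testes, with ribosomal and globin RNA removed. P-values measure the spread between these mice, and the labels name no treatment and do not describe the Nsun7 allele. Nsun7 belongs to a family of RNA methyltransferases, and the series title calls it an RNA binding protein that acts on transcripts of elongated spermatids. The members were sorted by known role into 7 prepachytene factors, 7 pachytene and chromatoid body factors, 12 factors used in both phases and 7 wider RNA granule factors. The last set includes genes such as Tsn, Tsnax, Fxr1, Mov10 and Tdrd3, which many other tissues also express.

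PIWI-interacting RNAs (piRNAs) are short germline RNAs that are cut from long precursors, loaded onto PIWI proteins and used to silence transposons and other transcripts. In mice a prepachytene set acts in fetal and newborn germ cells, where Piwil2 (MILI) and the nuclear Piwil4 (MIWI2) direct methylation of transposon DNA. A pachytene set is made in spermatocytes of the adult testis, is bound by Piwil1 (MIWI) and Piwil2, and its precursors and several of its protein genes are driven by the transcription factor A-MYB, the product of Mybl1. The proteins gather in germ granules, the intermitochondrial cement of spermatocytes and the chromatoid body of round spermatids.

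The promoter windows of 4 members are printed to show the start regions of an abundant pachytene factor, a scarce prepachytene factor and 2 others. Piwil1 was the most abundant pachytene factor and Piwil4 the least abundant of all 33 members. Mael is an abundant factor of both phases and Gpat2 an abundant prepachytene factor. No window of a wider RNA granule factor is printed. Each window runs from 250 bases before to 50 bases after the annotated start, 5′ to 3′ on the gene's strand, in RefSeq's GRCm38.p6 annotation, which is older than the mm39 build of the files and is used here for sequence only. Capitals mark the MYB motif GGCNGTT on either strand.
Piwil1, chr5:128735996-128736295, plus strand: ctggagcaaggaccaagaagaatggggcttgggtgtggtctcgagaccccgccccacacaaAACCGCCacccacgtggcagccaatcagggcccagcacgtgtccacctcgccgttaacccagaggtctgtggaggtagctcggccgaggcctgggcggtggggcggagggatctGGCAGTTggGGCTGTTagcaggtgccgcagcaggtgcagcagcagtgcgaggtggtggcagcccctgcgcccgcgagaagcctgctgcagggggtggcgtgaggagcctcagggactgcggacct
Mael, chr1:166238695-166238994, minus strand: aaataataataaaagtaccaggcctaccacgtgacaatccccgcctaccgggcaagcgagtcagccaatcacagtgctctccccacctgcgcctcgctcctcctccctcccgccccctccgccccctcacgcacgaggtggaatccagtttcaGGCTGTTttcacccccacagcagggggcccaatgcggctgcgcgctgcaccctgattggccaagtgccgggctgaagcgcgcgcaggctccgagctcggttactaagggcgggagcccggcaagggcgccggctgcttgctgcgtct
Gpat2, chr2:127424949-127425248, plus strand: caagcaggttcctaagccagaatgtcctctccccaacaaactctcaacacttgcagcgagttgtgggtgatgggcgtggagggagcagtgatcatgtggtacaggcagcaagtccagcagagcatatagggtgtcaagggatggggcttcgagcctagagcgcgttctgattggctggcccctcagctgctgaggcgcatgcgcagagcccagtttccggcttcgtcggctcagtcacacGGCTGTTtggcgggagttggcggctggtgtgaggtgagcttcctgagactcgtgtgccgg
Piwil4, chr9:14740623-14740922, minus strand: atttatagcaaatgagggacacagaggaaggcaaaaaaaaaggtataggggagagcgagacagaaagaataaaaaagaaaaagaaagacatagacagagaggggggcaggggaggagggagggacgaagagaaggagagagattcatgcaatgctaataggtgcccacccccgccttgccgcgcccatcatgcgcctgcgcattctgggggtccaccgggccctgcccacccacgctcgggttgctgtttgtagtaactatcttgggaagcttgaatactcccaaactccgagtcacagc

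The Piwil1 window held 3 matches, starting 189, 75 and 66 bases before the annotated start, and the last 2 of them lay side by side. Mael held 1 match 97 bases before the start and Gpat2 held 1 match 10 bases before it, and the printed Piwil4 window held none. The windows of Fkbp6, the most abundant prepachytene factor, are not printed and also held none. Of the 25 members with a window in the table, 10 held the motif in at least 1 window, against 13.6% of 27025 gene symbols. By class these were 2 of 5 prepachytene, 2 of 5 pachytene, 5 of 10 both-phase and 1 of 5 wider granule factors. The other 8 members, Piwil2, Tdrd6 and Rnf17 among them, had no window. A gene with more windows has more room for a match, and the number of windows per gene was not matched. Tdrd1 held the motif only in window 3 and Mov10 only in window 2. Of all 32851 windows 12.1% held it. A match describes letters in this window and does not show that a factor binds there.

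The libraries held between 23480448 and 28558865 estimated counts. Nsun7 checked the labels: its normalized level in CPM (counts scaled to a common library size after TMM normalization) was 36.6, 35.7 and 37.2 in WT mice 1, 2 and 3 and 18.0, 17.8 and 25.2 in Nsun7-/- mice 1, 2 and 3. No knockout value overlapped a wild-type one, and a two-sided exact permutation test gave p = 0.1, the smallest that 3 against 3 libraries allow; edgeR's quasi-likelihood test gave a log2 fold change of -0.84 (SE 0.15, adjusted p = 0.016). Markers of every germ cell stage were present, and the count test called 0 of 10 spermatogonial, 0 of 10 leptotene and zygotene, 0 of 10 pachytene, 0 of 10 round spermatid and 0 of 10 elongating spermatid markers. In that order the median log2 fold changes were -0.0097, -0.05, -0.08, 0.04 and -0.21. By edgeR's test 3, 2, 1, 1 and 3 of each 10 had an unadjusted p under 0.05, against 8.39% of all tested genes. In CPM 4, 3, 1, 1 and 1 of each 10 did not overlap between the genotypes, against 14.3% of all tested genes. The summed leptotene and zygotene markers still did not overlap, at 163 to 187 CPM in wild type and 140.1 to 159 CPM in the knockout. Of these 10 genes 2 had a log2 fold change above 0, and the median was -0.05. Spo11 and Meiosin held most of that sum. Spo11 ran from 58.5 to 65.9 CPM in wild type and from 47.8 to 58.1 in the knockout. Meiosin ran from 43.2 to 49.7 and from 32.0 to 39.1 CPM. The summed pachytene markers ran from 13358 to 22983 CPM in wild type and from 9023 to 14580 CPM in the knockout; without Ccnb1ip1, whose CPM ran from 2026 to 12782, they ran from 9003 to 10202 and from 6997 to 9277. Both pachytene sums overlapped and were lowest in knockout mouse 3. Of 7 Leydig cell markers 2 were called higher, and their summed CPM ran from 1693 to 2837 in wild type and from 2147 to 4820 in Nsun7-/- mice. On the first principal component the libraries stood at -38.3, -21.3 and -6.39 for WT mice 1, 2 and 3 and at 0.98, 15.9 and 49.2 for Nsun7-/- mice 1, 2 and 3. Every knockout library lay above every wild-type one, with wild-type mouse 1 and knockout mouse 3 at the ends. The component held 35.5% of the variance, and wild-type mouse 3 stood nearer to knockout mouse 1 than to wild-type mouse 2. Estimated fragment length (transcript length minus effective length) was 153.2, 166.7 and 174.1 bases in WT mice. It was 174.7, 177.5 and 174.5 bases in Nsun7-/- mice. The part of genotype and of library properties in this component was not tested. Values without knockout mouse 3 stand beside the classes and the members that it moved most.

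Most members were expressed well above the typical gene, and Piwil4 alone was below 1 TPM. The deposited TPM (a level per transcript length, scaled to a fixed total) is used here to compare genes with each other. The median member stood at 47.5 TPM in WT mice and 58.8 in Nsun7-/- mice, and the median of all 21002 tested genes at 7.07 and 8.79. TPM shares a fixed total with Rmrp, an abundant noncoding RNA that took 15.7% to 33.3% of the total in wild type and 11.4% to 17.5% in Nsun7-/- mice, and TPM was lowest in wild-type mouse 1 for 31 of 33 members. The part of Rmrp in these TPM values was not tested. Ratios between members within a library are not touched by that total.

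**Figure D1:**
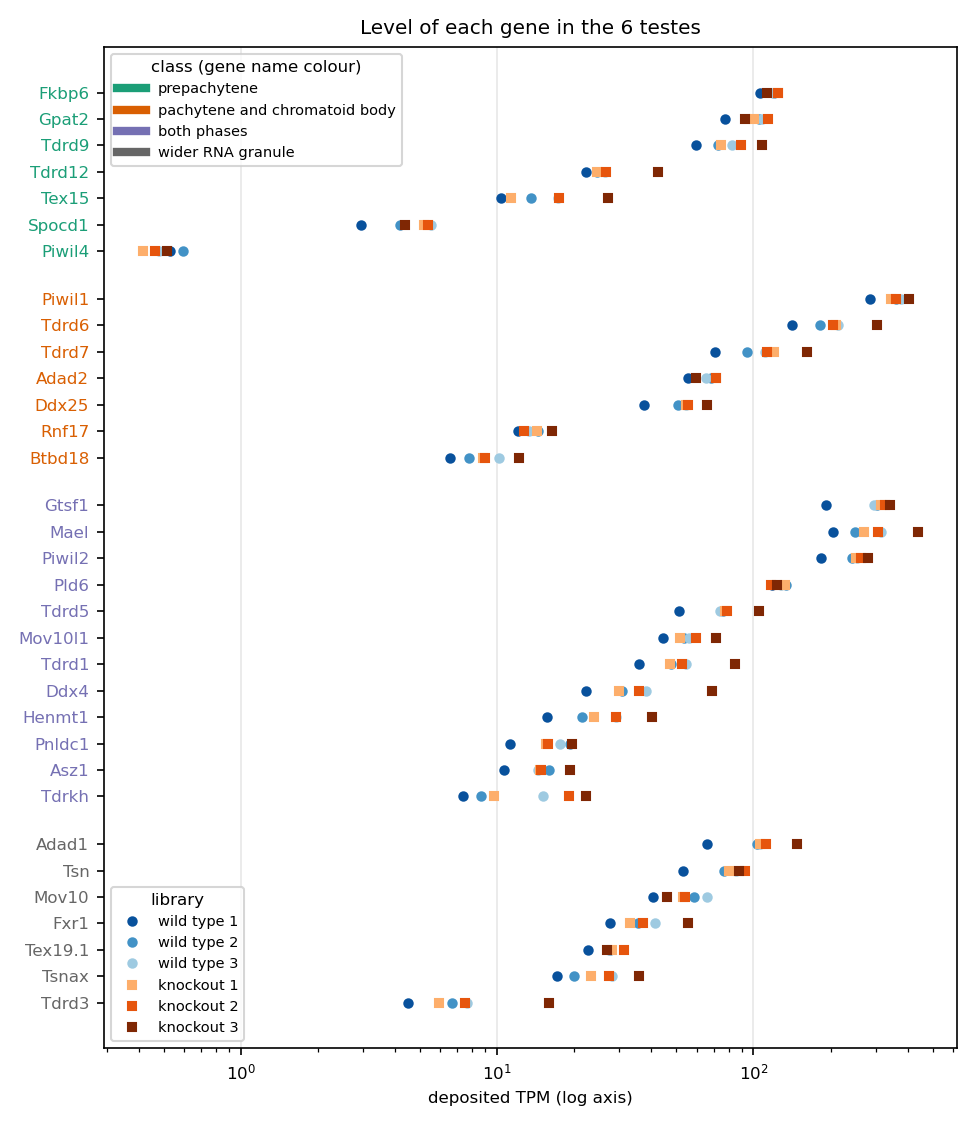
Deposited TPM (log axis) of the 33 members in each of the 6 libraries, grouped by class and ordered by wild-type level. Circles are wild-type and squares knockout mice; Piwil4 sits near 0.5 TPM in every library and Piwil1 between 285 and 403.

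The 3 PIWI genes ranked in the same order in every library. Piwil1 stood at 285, 360 and 378 TPM in WT mice 1, 2 and 3 and at 344, 359 and 403 in Nsun7-/- mice 1, 2 and 3. Piwil2 followed with 184, 241 and 254 TPM in WT mice and 252, 263 and 279 in Nsun7-/- mice. Piwil4 was near the floor, at 0.531, 0.593 and 0.478 TPM in WT mice and 0.414, 0.465 and 0.515 in Nsun7-/- mice, from 27 to 42 counts per library. The ratio of Piwil1 to Piwil2 in TPM was 1.51 ± 0.0338 (SD, n = 3) in wild type and 1.39 ± 0.0454 in Nsun7-/- mice, with no overlap between the genotypes. In CPM the genotypes overlapped in this ratio, since wild-type mouse 3 was at 1.63 and knockout mouse 1 at 1.64. The TPM of Piwil2 rests in part on a short transcript, described below, whose part in the TPM ratio was not tested. Piwil2 exceeded Piwil4 by between 346 and 608 times. The adult testis thus held both PIWI genes of the pachytene phase at high levels and the fetal nuclear PIWI gene at a trace.

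The other prepachytene factors were not uniformly low in the adult testis. Fkbp6, an HSP90 co-chaperone for piRNA loading, was the most abundant of the class at 115 ± 8.06 TPM in WT mice and 121 ± 6.63 in Nsun7-/- mice (SD, n = 3). Gpat2, a mitochondrial outer membrane protein needed for piRNA production, stood at 97.0 ± 17.1 and 102 ± 10.8 TPM, and the helicase gene Tdrd9 at 71.6 ± 11.6 and 90.6 ± 16.7. Tdrd12, a tudor protein needed for loading MIWI2, was lower at 24.4 ± 2.14 and 31.3 ± 9.86 TPM. The nuclear partners of MIWI2 were lower still, Tex15 at 13.7 ± 3.44 and 18.6 ± 8.01 TPM and Spocd1 at 4.21 ± 1.28 and 4.97 ± 0.517. Piwil4 and these nuclear partners were the 3 least abundant genes of the class.

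Pachytene and chromatoid body factors were led by Piwil1 and Tdrd6, the latter a large tudor protein of the chromatoid body at 179 ± 36.1 TPM in WT mice and 240 ± 56.0 in Nsun7-/- mice. Tdrd7 of the same granule stood at 92.0 ± 20.0 and 132 ± 26.7 TPM, Adad2 of spermatocyte granules at 63.2 ± 6.62 and 67.6 ± 6.93, and the helicase gene Ddx25 at 47.5 ± 9.07 and 58.8 ± 6.39. Rnf17, a tudor and RING protein, and Btbd18, a nuclear protein that helps transcription of pachytene precursors, were the least abundant. They stood at 13.3 ± 1.19 and 8.15 ± 1.87 TPM in wild type.

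By median and by summed TPM, the pachytene factors stood above the prepachytene factors in every library. The ratio of their median TPM was 2.51, 2.79 and 2.47 in WT mice 1, 2 and 3 and 2.90, 2.70 and 1.55 in Nsun7-/- mice 1, 2 and 3. The ratio of summed TPM was 2.18, 2.28 and 2.35 in wild type and 2.42, 2.18 and 2.63 in Nsun7-/- mice. The genotypes overlapped in both ratios. Narrower classes of 4 genes each kept Piwil1, Btbd18, Rnf17 and Adad2 against Piwil4, Tdrd9, Tex15 and Spocd1. Their ratio of summed TPM was 4.88, 4.95 and 4.40 in wild type and 4.79, 4.02 and 3.51 in Nsun7-/- mice. The genotypes overlapped there too, and knockout mouse 3 was lowest, so the ratio of sums depends on class membership. The genes of the 2 classes interleaved. In mean wild-type TPM the prepachytene Fkbp6, Gpat2 and Tdrd9 (71.6) stood above the pachytene Adad2 (63.2), Ddx25, Rnf17 and Btbd18. In wild-type mouse 1 Piwil1 stood at 285 and Tdrd6 at 142 TPM in a pachytene sum of 609 TPM. Tdrd12 was the middle prepachytene gene in every library. The middle pachytene gene was Adad2, or Ddx25 in knockout mouse 3. In knockout mouse 3 the 2 ratios of the full classes parted. The ratio of medians was the lowest of the 6 libraries, with Tdrd12 as the middle prepachytene gene at 42.6 TPM. The ratio of sums over the full classes was the highest. These are descriptions of chosen lists and carry no test.

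Factors used in both phases held some of the most abundant members. Gtsf1, a small zinc finger protein that helps PIWI proteins cut their targets, stood at 263 ± 62.4 TPM in WT mice and 327 ± 12.8 in Nsun7-/- mice. Mael, needed for export of piRNA precursors to germ granules, stood at 256 ± 54.9 and 339 ± 89.2, and Pld6, the mitochondrial endonuclease that cuts precursors, at 127 ± 8.21 and 125 ± 7.74. The 3′ end factors were far lower: Henmt1, which methylates the end, at 22.0 ± 6.68 and 31.0 ± 8.34 TPM, Pnldc1, which trims it, at 16.0 ± 4.21 and 17.0 ± 2.22, and Tdrkh, the mitochondrial tudor protein that recruits the trimmer, at 10.4 ± 4.16 and 17.0 ± 6.47. Asz1, a mitochondrial scaffold of the same granule, stood at 13.6 ± 2.73 and 16.2 ± 2.57 TPM. In wild type the wider granule factors ran from Tdrd3 at 6.25 ± 1.60 TPM to Adad1, an RNA-binding protein of spermatids, at 91.7 ± 22.6.

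No member passed the test of knockout against wild type. With edgeR's quasi-likelihood test on all 21002 tested genes, 0 of 33 members were higher and 0 lower at a Benjamini-Hochberg adjusted p of 0.05, against 0.567% of all tested genes (0.233% higher and 0.333% lower). Higher genes made up 41.2% of those calls, and 72.1% of the calls made on log2(TPM + 1), where the median of all genes stood at 0.24; 0 members were called there either. All 33 members passed the filter on low counts. None had an unadjusted p under 0.05, where 8.39% of all tested genes did, and DESeq2 called 0 members higher and 0 lower, against 0.88% of the genes it tested (0.403% higher and 0.476% lower). The lowest adjusted p was 0.596, for Mov10. The median log2 fold change of the members was 0.0095, and that of all tested genes 0.015, with 20 members above 0 and 13 below. In bulk tissue RNA, fewer cells of a type and less RNA per cell cannot be told apart.

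The intervals show which sizes of change these data leave room for. The 95% interval of the log2 fold change lay within 1 of 0, that is within a doubling or halving, for 32 of 33 members, against 81.4% of all tested genes. It lay within 0.585 of 0 for 29 members, against 54.1% of all tested genes. The exception to the wider bound was Piwil4, whose few counts gave an interval from -1.06 to 0.11. A p that misses the threshold does not show that the genotypes were alike inside these intervals.

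**Figure D2:**
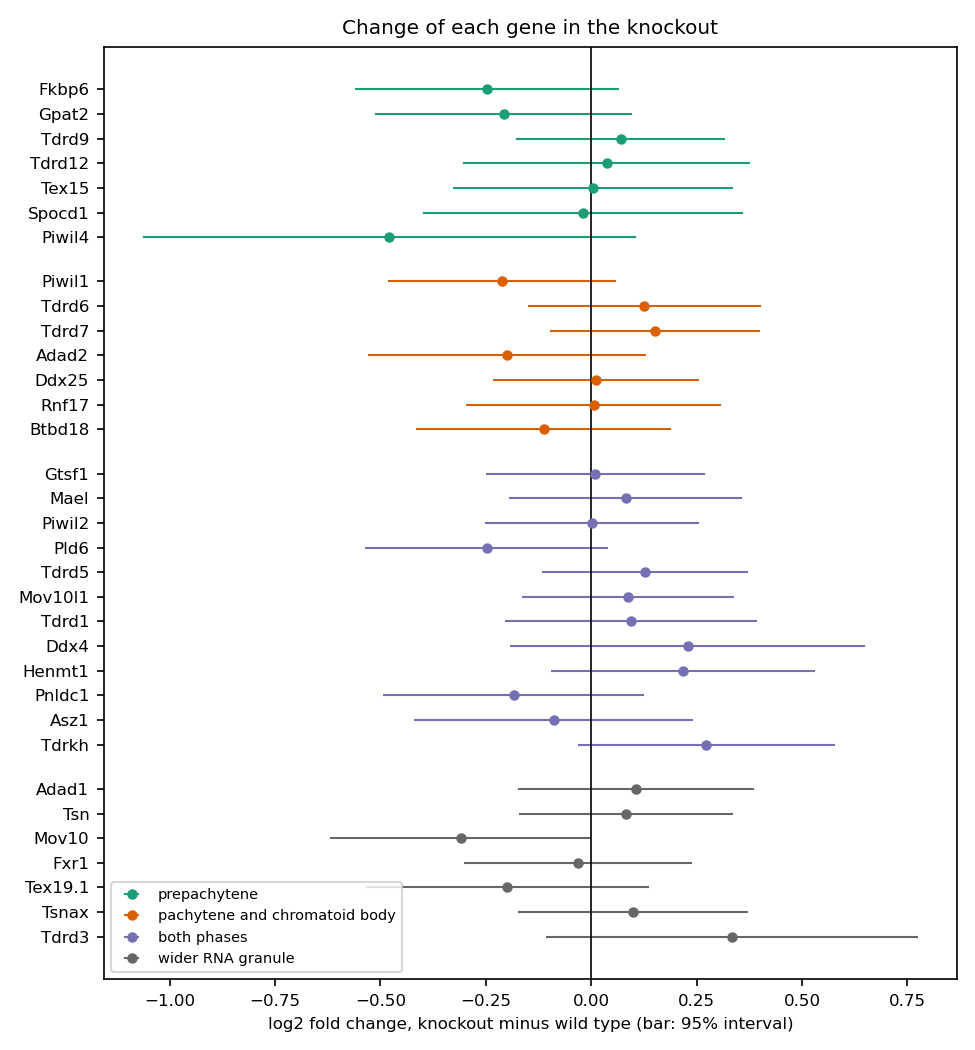
Log2 fold change of each member, knockout minus wild type, with its 95% interval from edgeR's quasi-likelihood fit, grouped by class. Every interval includes 0, and that of Mov10 reaches it at its upper end.

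None of the 3 PIWI genes passed the test. Piwil1 was at 1017, 993 and 908 CPM in WT mice 1, 2 and 3 and at 903, 832 and 784 CPM in Nsun7-/- mice 1, 2 and 3. Every knockout library was below every wild-type one, though wild-type mouse 3 and knockout mouse 1 were within 1% of each other. The log2 fold change was -0.21 (SE 0.13, adjusted p = 0.656), with an interval from -0.48 to 0.06. On log2(TPM + 1) the value turned positive, at 0.12, but the median of all tested genes on that scale was higher, at 0.24.

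Piwil2 was at 531, 572 and 558 CPM in WT mice and 549.6, 579 and 534 in Nsun7-/- mice, and the genotypes overlapped throughout (log2 fold change 0.0014, interval -0.25 to 0.25). Piwil4 was at 1.72, 1.63 and 1.19 CPM in WT mice and 1.09, 1.13 and 1.04 in Nsun7-/- mice. Its 3 knockout values were close together and just below the lowest wild-type value (log2 fold change -0.48, SE 0.27, adjusted p = 0.649). Two-sided exact permutation tests on CPM gave p = 0.1 for Piwil1 and Piwil4, the smallest p this design allows, and p = 1 for Piwil2. Piwil1 lies on chromosome 5, which also carries Nsun7 and Fkbp6.

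Among the other pachytene factors, Tdrd7 was at 245, 257 and 255 CPM in WT mice and 279, 260.4 and 301 in Nsun7-/- mice. Its knockout libraries were all higher than its wild-type ones, by a log2 fold change of 0.15 (SE 0.12, adjusted p = 0.704). Btbd18, the least abundant of the class, was at 10.3, 10.003 and 10.9 CPM in WT mice and 8.89, 9.67 and 10.3 in Nsun7-/- mice, and the genotypes overlapped. The log2 fold changes of Tdrd6 (0.13), Ddx25 (0.01), Rnf17 (0.0054), Btbd18 (-0.11) and Adad2 (-0.20) had adjusted p between 0.707 and 0.992. The median of the class was 0.0054, with 4 of 7 values above 0 and 0 called. Without knockout mouse 3 the class median was -0.02, with 3 of 7 above 0, and the values of Tdrd7 and Adad2 were 0.09 and -0.04.

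Prepachytene factors had a median log2 fold change of -0.02, with 3 of 7 values above 0 and 0 called. Without knockout mouse 3 it was -0.12, with 2 of 7 above 0. Fkbp6 was at 146, 128 and 112 CPM in WT mice and 124, 114 and 87.7 in Nsun7-/- mice, so that only knockout mouse 3 lay outside the wild-type range (log2 fold change -0.25, SE 0.15, adjusted p = 0.655). Without that mouse the log2 fold change of Fkbp6 was -0.12, and that of Gpat2 was -0.07. The log2 fold change was -0.21 for Gpat2, with Spocd1 at -0.02, Tex15 at 0.0036, Tdrd12 at 0.04 and Tdrd9 at 0.07, with adjusted p between 0.677 and 0.995. The difference between the class medians, pachytene minus prepachytene, was 0.03. It ran from -0.08 to 0.12 when single libraries were left out, and with narrower classes of 4 genes each it was -0.15.

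The factors of both phases had a median log2 fold change of 0.08, with 9 of 12 values above 0 and 0 called. Without knockout mouse 3 it was -0.0087, with 6 above 0 and 6 below. Tdrkh, which had the smallest p of the class, was at 23.3, 21.9 and 24.5 CPM in WT mice and 24.1, 26.6 and 33.5 in Nsun7-/- mice (log2 fold change 0.27, SE 0.14, adjusted p = 0.631). Knockout mouse 1 lay inside the wild-type range, knockout mouse 2 just above it and knockout mouse 3 far above it, and without mouse 3 the value was 0.12. Pld6 was at 173, 156 and 136 CPM in WT mice and 151, 125 and 116 in Nsun7-/- mice, with knockout mouse 1 between the wild-type libraries (log2 fold change -0.25, SE 0.13, adjusted p = 0.64).

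Mael was at 326, 311 and 345 CPM in WT mice and 313, 327 and 399 in Nsun7-/- mice. Knockout mice 1 and 2 lay inside the wild-type range (log2 fold change 0.08, SE 0.13), and without knockout mouse 3 the value was -0.04. Tdrd5, a tudor protein of both granules, was the one member of the class without overlap, at 176, 193.7 and 187 CPM in WT mice and 196, 194.02 and 218 in Nsun7-/- mice (log2 fold change 0.13, adjusted p = 0.742). Without knockout mouse 3 it was 0.07. The remaining log2 fold changes ran from -0.18 for Pnldc1 to 0.23 for the helicase gene Ddx4, with the MILI partner Tdrd1 at 0.09, the precursor helicase Mov10l1 at 0.09, Henmt1 at 0.22, Asz1 at -0.09 and Gtsf1 at 0.0095.

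Of the wider granule factors, Mov10, an RNA helicase that restrains retroelements in many cells, had the smallest p of all members. It was at 134, 156 and 137 CPM in WT mice and 129, 127 and 89.5 in Nsun7-/- mice, with no overlap (log2 fold change -0.31, SE 0.14, adjusted p = 0.596). Without knockout mouse 3 the value was -0.16. Tdrd3, a tudor protein of stress granules, was at 9.51, 10.1 and 10.7 CPM in WT mice and 9.42, 10.95 and 17.7 in Nsun7-/- mice. Its log2 fold change of 0.33 (SE 0.21) was the highest of the members and was 0.0061 without knockout mouse 3.

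Adad1 was at 57.6, 66.2 and 60.8 CPM in WT mice and 60.9, 59.7 and 78.1 in Nsun7-/- mice, again with knockout mouse 3 alone outside the wild-type range (log2 fold change 0.11, adjusted p = 0.808). Without that mouse the value was -0.04 for Adad1, -0.17 for Fxr1 and -0.04 for Tex19.1. Translin and its partner, Tsn (0.08) and Tsnax (0.10), the RNA-binding protein gene Fxr1 (-0.03) and Tex19.1 (-0.20), which limits retrotransposons in germ cells, had adjusted p between 0.71 and 0.952. Over all members 5 of 33 had no overlap between the genotypes in CPM, or 15.2%, near the 14.3% of all tested genes. They were Piwil4, Piwil1 and Mov10 on the lower side and Tdrd7 and Tdrd5 on the higher.

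**Figure D3:**
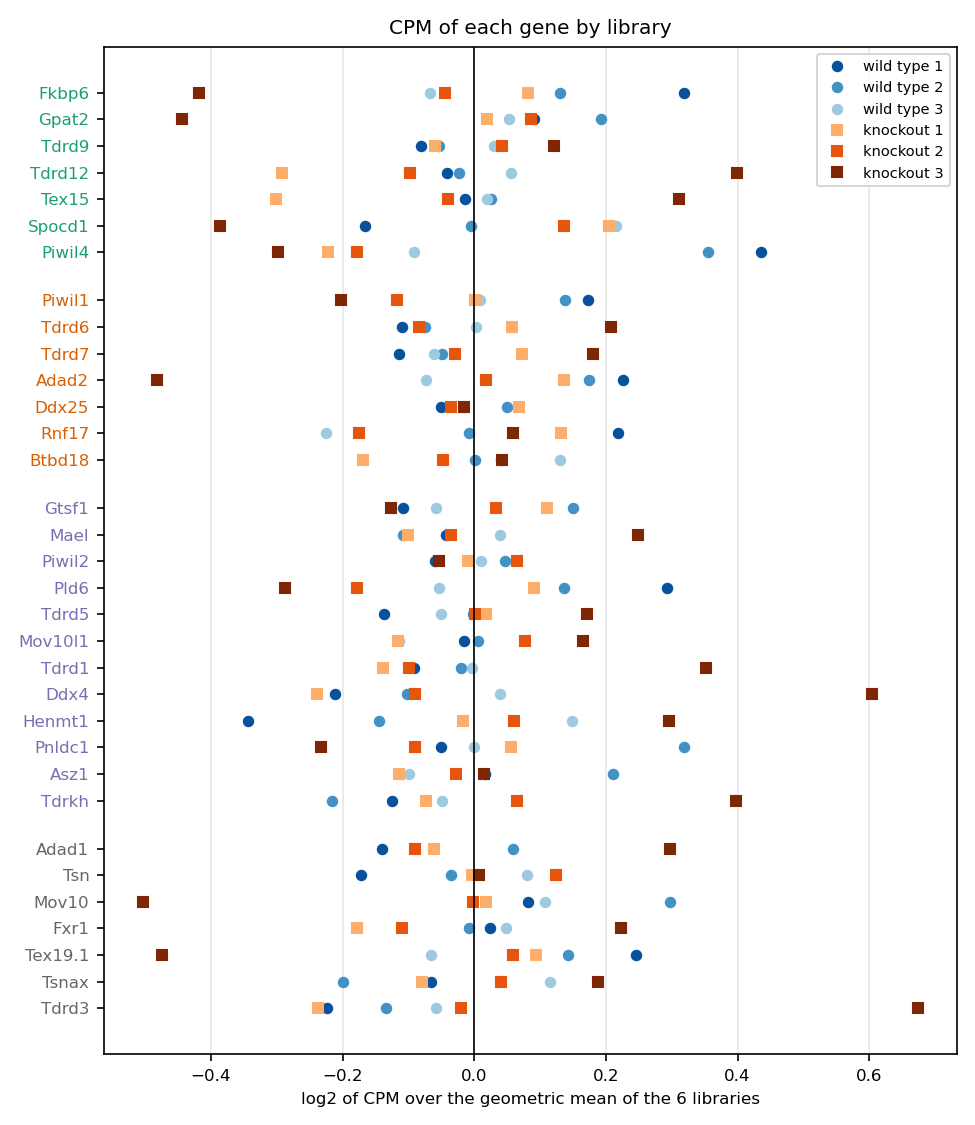
CPM of each member in each library, as log2 of the value over the geometric mean of the 6 libraries. Circles are wild-type and squares knockout mice; knockout mouse 3 is the highest library for 16 members and the lowest for 11.

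Several members varied more within the knockout group than between the genotypes. Knockout mouse 3 was the highest of the 6 libraries for 16 members and the lowest for 11, or 48.5% and 33.3%, against 31.2% and 28.7% of all tested genes. Ddx4, the germ cell helicase that marks germ granules, was at 72.1, 77.8 and 85.8 CPM in WT mice and 70.8, 78.5 and 127 in Nsun7-/- mice. Knockout mouse 3 exceeded the mean of the other two knockout mice 1.70-fold for Ddx4, 1.74-fold for Tdrd3, 1.51-fold for Tdrd12 and 1.39-fold for Tdrd1. It was at 0.678 of that mean for Adad2, 0.679 for Spocd1, 0.683 for Tex19.1, 0.701 for Mov10 and 0.708 for Gpat2.

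High and low members in that library differed in base composition. The GC content of the leading transcript had a median of 48.9% (43.1% to 51.7%) in the 16 members highest in knockout mouse 3 and of 53.4% (47.4% to 63.0%) in the 11 members lowest in it. Across the 33 members Spearman's rho between GC content and the centred log2 CPM of knockout mouse 3 was -0.68, and across 19624 tested genes with a sequence it was -0.54. For knockout mouse 1 these were 0.59 and 0.22, and for the wild-type libraries they lay between 0.0090 and 0.44 over the members and between 0.09 and 0.25 over all genes. These values are across genes of 1 set of libraries, and genes are not independent replicates. Each gene was centred on its mean over all libraries, so a negative trend in knockout mouse 3 pushes the trends of the other libraries upward. The positive values are therefore partly built in. Over all genes the third with the lowest GC content had a median of 0.24 in knockout mouse 3 and the third with the highest -0.22. Rnf17, at 40.4% the member of lowest GC content, was an exception, with 35.9 CPM in knockout mouse 3 against a range of 29.5 to 40.1 in wild type.

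**Figure D4:**
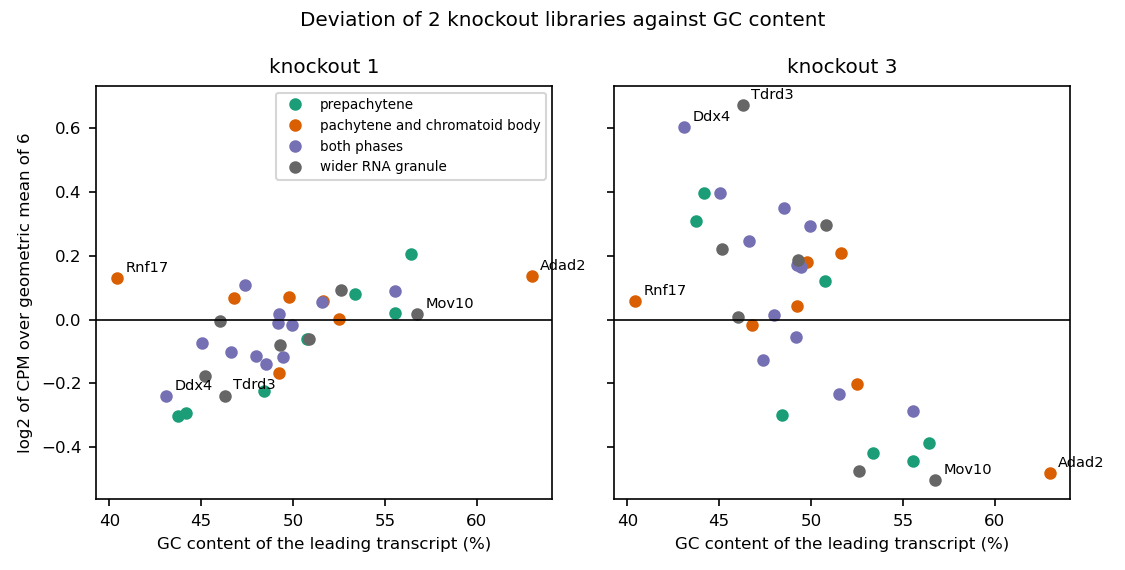
Log2 of CPM over the geometric mean of the 6 libraries, for knockout mice 1 and 3, against the GC content of each member's leading transcript, coloured by class. Values fall with GC content in knockout mouse 3 (rho -0.68) and rise with it in knockout mouse 1 (rho 0.59).

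The log2 fold change of knockout against wild type also fell with GC content, with a rho of -0.45 over the members and -0.33 over all tested genes. Without knockout mouse 3, 14 members were above 0 and 19 below, the median was -0.04, and values ran from -0.45 for Piwil4 to 0.14 for Spocd1, with 0 called and 0 at an unadjusted p under 0.05. Ddx4 went from 0.23 to -0.08, Tdrd12 from 0.04 to -0.20 and Tdrd1 from 0.09 to -0.09, while Piwil1 (-0.17) moved little. Summed Sertoli cell markers, 10 genes of which 0 were called and 0 were at 0 counts, ran from 3429 to 4252 CPM in WT mice and from 2786 to 4082 in Nsun7-/- mice, lowest in knockout mouse 3. Summed peritubular markers, 6 genes with 0 called and 0 above 0, did not overlap, at 577 to 639 CPM in WT mice and 426 to 566 in Nsun7-/- mice, and were lowest in knockout mouse 3. Macrophage markers, 7 genes with 0 called and 7 above 0, overlapped at 172 to 216 and 181 to 279 CPM. The part of GC content and of somatic cell content in these values was not tested.

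Transcript estimates showed which products carried the counts. The files held 147 transcripts of the members, 117 of them tested, and 0 passed edgeR's test over 58773 transcripts, against 0.0272% of all. Of the 117, 1 had an unadjusted p under 0.05, against 4.76% of all tested transcripts. The sequence annotation used for names and types was GENCODE M21. In 27 of 33 members the transcript with most counts was annotated as protein coding, and in 9 it held over 90% of the gene's counts. For Adad2, Ddx25, Gpat2 and Spocd1 a single transcript held all counts.

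In 6 members the leading transcript was not annotated as coding. The 1753-base transcript of Pld6, annotated as a processed transcript, held 78.5% ± 3.42 of its counts in WT mice and 85.9% ± 3.09 in Nsun7-/- mice (SD, n = 3). The coding transcript of 948 bases held 914, 923 and 621 counts in WT mice and 636, 483 and 391 in Nsun7-/- mice. Knockout mouse 1 overlapped wild-type mouse 3 (log2 fold change -0.85, SE 0.32, adjusted p = 0.932). This was the member transcript with an unadjusted p under 0.05.

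For Asz1 a 667-base processed transcript held 76.1% ± 0.480 and 74.7% ± 7.85 of the counts, and for Adad1 a 714-base retained intron held 52.7% ± 3.77 and 55.2% ± 6.72. Tex15 and Pnldc1 were led by transcripts annotated for nonsense-mediated decay, with 44.9% ± 0.794 and 44.5% ± 5.46 in wild type, and Tsn by a 656-base retained intron with 28.3% ± 0.754. The TPM of these genes therefore rests in part on short or noncoding transcripts. Gene-level CPM does not separate them from the coding mRNA. Short transcripts also carried much of the TPM of Piwil2 and Btbd18, which were led by longer coding transcripts. A 962-base coding transcript of Piwil2 held 16.3% of the counts but 93.5 of 184 TPM in wild-type mouse 1. In knockout mouse 3 it held 11.5% of the counts and 118 of 279 TPM. A 636-base processed transcript of Btbd18 held 4.10 of 6.52 TPM in wild-type mouse 1 and 8.05 of 12.2 in knockout mouse 3.

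Several splits between transcripts differed between libraries of 1 genotype. For Tdrkh, the 2642-base transcript Tdrkh-201 held 0.93, 0.808 and 412 counts in WT mice and 70.2, 72.0 and 0.00011 in Nsun7-/- mice. The 2652-base Tdrkh-207 held 308, 395 and 0.104 counts in WT mice and 351, 362 and 559 in Nsun7-/- mice. In the reference sequences these transcripts share 2636 bases, with 6 bases that only the shorter one has and 16 that only the longer one has. Wild-type mouse 3 was the one library in which the shorter transcript held most of the counts.

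Tdrkh TPM moved more than its counts, from 7.37 to 22.2 TPM over the libraries, while its CPM ran from 21.9 to 33.5. The 476-base Tdrkh-206, annotated for nonsense-mediated decay, held 0.21, 0.14 and 4.68 TPM in WT mice and 0, 7.78 and 6.07 in Nsun7-/- mice. It had at most 48.6 counts in a library. The whole gene stood at 15.1 TPM in wild-type mouse 3 and 19.0 TPM in knockout mouse 2. The spermatid gene Oaz3, at 660 ± 179 CPM in WT mice and 705 ± 185 in Nsun7-/- mice (SD, n = 3), overlaps the Tdrkh locus on the other strand. No source says that strand was used in counting, and reads from transcribed sequence shared by both genes could be assigned to either. The gene spans of 11 other members, Piwil1 and Piwil4 among them, also overlap a neighbour on the other strand, and how much of their transcript sequence is shared was not measured.

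For Mov10l1, the 4052-base transcript held 9.91%, 27.4% and 63.2% of the counts in WT mice 1, 2 and 3 and 30.5%, 62.6% and 61.7% in Nsun7-/- mice 1, 2 and 3. The 4133-base transcript, which shares 4048 bases with it, held 69.8%, 57.7% and 24.4% in wild type and 53.5%, 26.8% and 31.4% in Nsun7-/- mice. The full-length Tdrd9 transcript of 4809 bases held 73.7%, 73.5% and 84.8% of the counts in WT mice and 81.8%, 90.6% and 97.2% in Nsun7-/- mice. A 3366-base Tdrd9 transcript annotated for decay held 1383, 1063 and 419 counts in WT mice and 446, 103 and 0 in Nsun7-/- mice, with knockout mouse 1 above wild-type mouse 3 (log2 fold change -2.46, SE 1.38, adjusted p = 0.932).

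**Figure D5:**
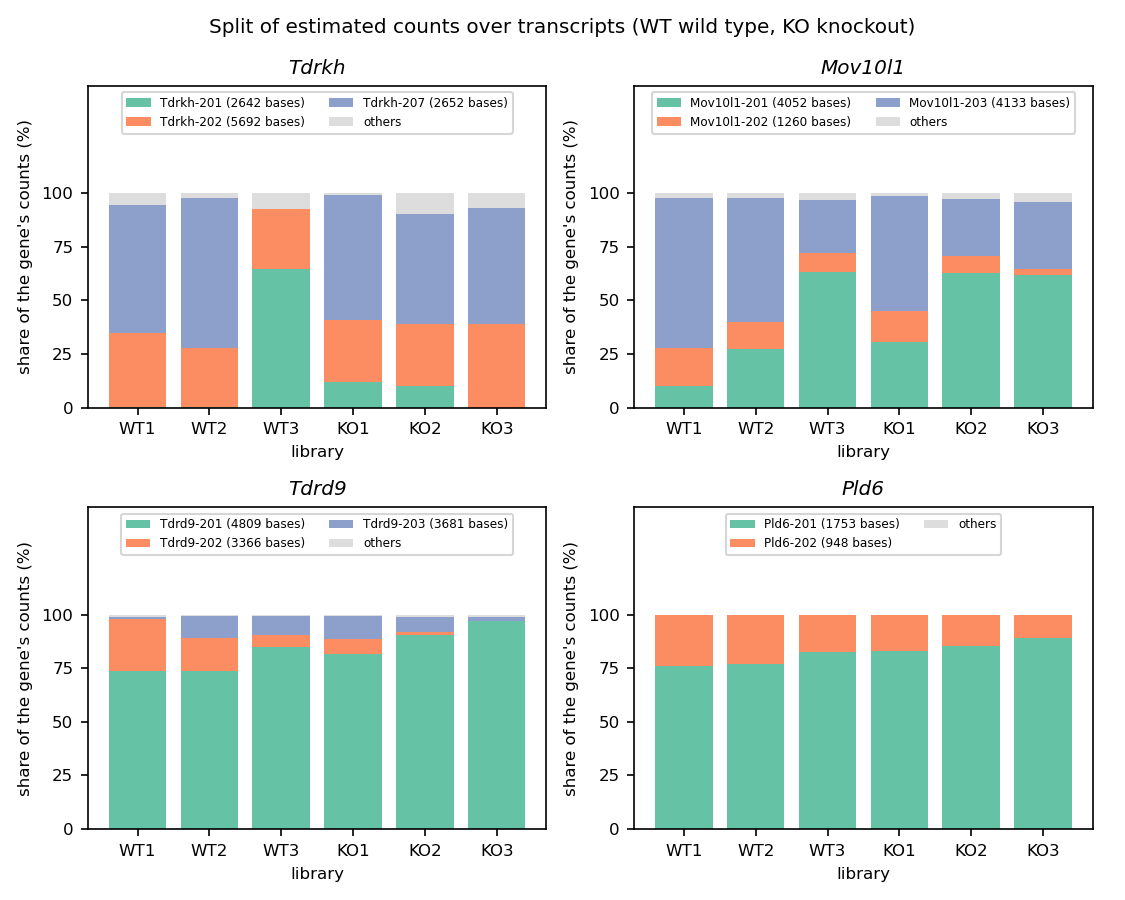
Share of each gene's estimated counts (%) on its transcripts of at least 10% in any library, for Tdrkh, Mov10l1, Tdrd9 and Pld6, in wild-type (WT) and knockout (KO) libraries. Tdrkh-201 holds 64.7% in wild-type mouse 3 and 0.18% or less in the other wild-type libraries.

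Other genes of the pathway were also tested. Of 31 listed, 30 were in the table and tested, and 0 rose and 0 fell past the threshold, against 0.567% of all genes, with a median log2 fold change of 0.02. The gene of smallest p was Ago1, a small RNA effector of the microRNA and siRNA pathways, at 17.6, 19.2 and 19.6 CPM in WT mice and 21.3, 22.7 and 24.1 in Nsun7-/- mice. Its knockout libraries were all higher (log2 fold change 0.27, SE 0.13, adjusted p = 0.596). Drosha, which cuts primary microRNAs, was at 79.7, 69.4 and 110.9 CPM in WT mice and 53.4, 68.1 and 79.0 in Nsun7-/- mice, and the genotypes overlapped (log2 fold change -0.37, SE 0.18, adjusted p = 0.615).

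Dnmt3l, the methylation cofactor of fetal germ cells, was low at 4.67, 4.96 and 3.58 CPM in WT mice and 3.60, 3.56 and 3.33 in Nsun7-/- mice (log2 fold change -0.33, SE 0.19, adjusted p = 0.65). Mybl1, which encodes A-MYB, was at 17.0, 15.2 and 17.0 CPM in WT mice and 14.6, 13.3 and 20.0 in Nsun7-/- mice, with knockout mouse 3 above and the other two below the wild-type range (log2 fold change -0.03, interval -0.38 to 0.31).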

How the data were processed

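Per the labels' protocols, tubule RNA went through Ribo-Zero Plus depletion and was made into libraries with the NEBNext Ultra II RNA kit. Per the submitters' processing notes the authors used kallisto 0.50.1 and mm39. Neither the annotation release nor a strand setting is stated in these sources. The authors deposited estimated counts and TPM per gene symbol (34144 rows) and per transcript (126126 rows, with length and effective length, per the file headers). The deposited gene counts are whole numbers, within 1 count of the summed transcript estimates for 32 of 33 members (not Henmt1). No column of another sample was found (0).

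The count test was edgeR's, version 4.0.16 under R 4.3.3 (TMM, filterByExpr by genotype, robust quasi-likelihood test, genotype as the sole term, Benjamini-Hochberg adjustment over all genes or transcripts tested); transcript estimates were rounded first. SEs are the log2 fold change over the square root of F, and 95% intervals use the test's degrees of freedom. DESeq2 1.42.0 and limma 3.58.1 served as alternatives, the latter with voom on gene counts and on log2 TPM with pseudocounts 1 and 0.1. A fold change on the log2 TPM scale understates changes of low genes. The tests were run on simulated counts, where the transcript test recovered a smaller share of the changed features than the gene test. The simulated libraries held no trend with GC content or fragment length, so they cannot show how such trends affect the calls. Members, classes and lists were chosen with earlier results of these data known. Library values are given in full for the PIWI genes, the 2 members of smallest p and the most and least abundant member of each class, and the 3 other pathway genes of smallest p. Ddx4, Tdrd5 and Mybl1, and the promoters and transcripts shown, were chosen after their values were seen. Intervals cover these libraries only; GENCODE M21 (GRCm38) gave names, overlaps and GC content, with no coordinates joined to the files.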

Additional observations from a re-analysis of the deposited data

How the results depend on the processing

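No member, no other pathway gene and no member transcript passed the threshold in any of the alternatives run, the lowest member adjusted p being 0.209, for Mov10 with mouse number as a replicate block. The count over all genes was 119, and 180 without a low-count filter, 205 with DESeq2, 331 with the replicate block, 61 and 68 on log2(TPM + 1) and log2(TPM + 0.1), and 63 on centred log2(TPM + 1); leaving out single mice gave 67 to 166. The calls were 41.2% higher in the main analysis, and 72.1%, 70.6% and 30.2% on those 3 TPM scales. Deviations of same-numbered mice had correlations of 0.18, -0.0048 and 0.20, and those of differently numbered mice lay between -0.24 and 0.06. Deviations within a genotype are tied to each other, so these values cannot decide whether the mice were paired. The main analysis did not read the numbers as pairs. Dropping WT mouse 1 together with Nsun7-/- mouse 3, and centring TPM, were chosen after seeing the data.

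On the 2 TPM scales the median of all genes moved to 0.24 and 0.30, the prepachytene median to 0.22 and 0.28 and the pachytene median to 0.27 and 0.30. There 10 members and the prepachytene median turned positive: Fkbp6 (0.071 and 0.072), Gpat2 (0.088 and 0.088), Spocd1 (0.22 and 0.28), Piwil1 (0.12 and 0.12), Btbd18 (0.27 and 0.30), Adad2 (0.10 and 0.10), Asz1 (0.24 and 0.26), Pnldc1 (0.11 and 0.11), Tex19.1 (0.15 and 0.16) and Fxr1 (0.24 and 0.25). On centred TPM Rnf17 (-0.18), Piwil2 (-0.052) and Mov10l1 (-0.049) turned negative. Narrow classes gave a pachytene median of -0.16 and a difference of -0.15. Near 0, Tex15 turned negative with RLE (-0.0077), no filter (-0.0018), DESeq2 (-0.015), voom (-0.014) and the block (-0.015), Rnf17 with RLE (-0.0040) and DESeq2 (-0.0099), Piwil2 with RLE (-0.0082), upper quartile (-0.0011), no filter (-0.0030) and DESeq2 (-0.014), and Ddx25 (-0.0039) and Gtsf1 (-0.0047) with DESeq2. Without both doubted mice Tdrd12 (-0.21), Tex15 (-0.19), Piwil2 (-0.00099), Tdrd1 (-0.11), Mael (-0.035), Ddx4 (-0.13), Tdrd3 (-0.029) and Adad1 (-0.075) turned negative and Spocd1 (0.061), Adad2 (0.023) and Tex19.1 (0.034) positive.

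Leaving out single mice changed the sign of 12 members, over these ranges: Adad1 -0.036 to 0.17, Ddx25 -0.030 to 0.031, Ddx4 -0.080 to 0.38, Fxr1 -0.17 to 0.035, Gtsf1 -0.053 to 0.084, Mael -0.037 to 0.14, Piwil2 -0.037 to 0.022, Rnf17 -0.10 to 0.11, Spocd1 -0.14 to 0.14, Tdrd1 -0.086 to 0.17, Tdrd12 -0.20 to 0.16 and Tex15 -0.18 to 0.13. The pachytene median ran from -0.077 to 0.031 and the prepachytene median from -0.14 to 0.0062. The causes were not tested. With 3 mice per genotype, changes well under 2-fold were within the intervals of most members, and Piwil4 rests on few counts.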
